A study of Homo sapiens with 4 samples.

Results

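The genes described here carry out cystine uptake and glutathione synthesis: SLC7A11, GCLC, GCLM, GSS, GSR, CHAC1 and CTH. They were taken by gene symbol from the deposited count table, and all 7 had a row among the 20515 rows and passed the filter on low counts. RNA came from T47D, an established human cell line of the luminal, hormone receptor positive kind of breast cancer. The 4 poly(A) RNA libraries were 2 controls, whose treatment is labelled as none, and 2 libraries labelled as treated with baicalein, a flavonoid of Scutellaria roots that inhibits lipoxygenases. The labels give no dose, duration or vehicle. They do not say whether the 2 libraries of a group were grown apart, so that each p-value rests on a spread that may be technical.

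Cystine, the oxidised dimer of cysteine, enters cells through an antiporter that exports glutamate in exchange. Its transport subunit is encoded by SLC7A11 and its chaperone subunit by SLC3A2. Cysteine can also be made from methionine by transsulfuration, in which CBS makes cystathionine and CTH splits it to cysteine. Glutamate-cysteine ligase, built from the catalytic subunit GCLC and the modifier subunit GCLM, makes gamma-glutamylcysteine in the rate-limiting step, and GSS adds glycine to give glutathione. GSR returns oxidised glutathione to the reduced form at the cost of NADPH, and CHAC1 degrades glutathione in the cytosol. SLC7A11, GCLC and GCLM are known targets of the oxidative stress factor NRF2 (gene NFE2L2), and SLC7A11 and CHAC1 of the amino acid stress factor ATF4.

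The cystine transporter gene, both ligase subunit genes and CHAC1 were 3.19-fold to 19.5-fold higher after baicalein, whereas the enzymes that complete and recycle glutathione differed little. GSS was 1.38-fold lower, GSR 1.12-fold higher, and CTH, the member with the fewest counts, did not pass the test. In edgeR's quasi-likelihood test, 5 of the 7 members were higher and 1 lower at an adjusted p under 0.05. Of all 18369 tested genes 37.4% were higher and 37.6% lower by the same rule. In a test against a 1.5-fold change, 4 members were higher and 0 lower, where 16.8% and 19.5% of all genes were called. The median log2 fold change of the members was 1.67, beside 0.002 over all tested genes. In bulk RNA, fewer cells of a type and less RNA per cell cannot be told apart.

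**Figure D1:**
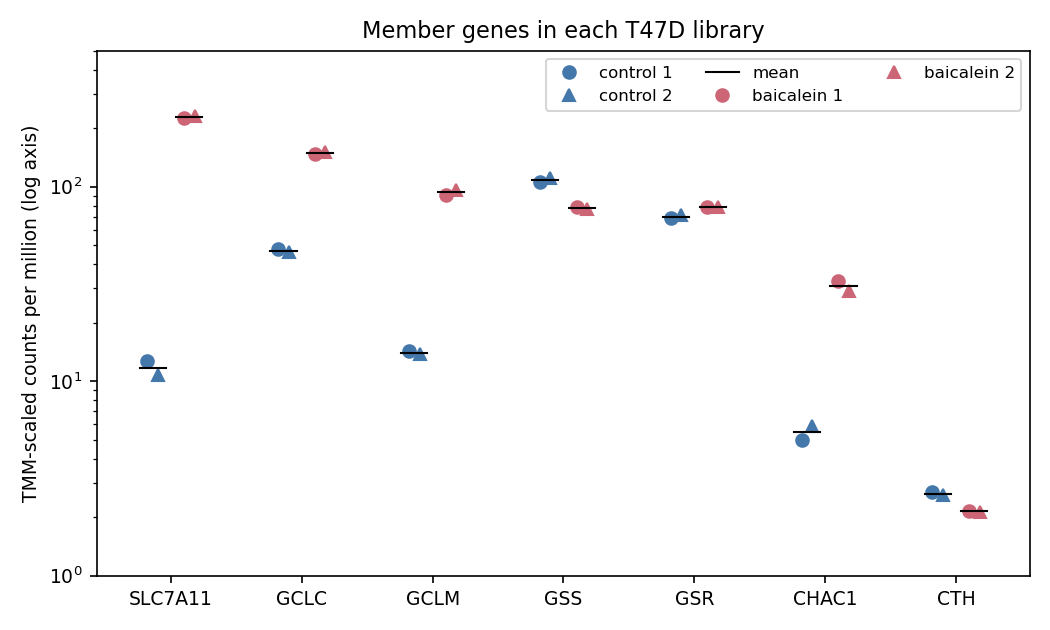
Level of each member gene in each library, in CPM (counts of a gene per 1000000 counts of the library, scaled by TMM factors) on a log axis. Circles are replicate 1 and triangles replicate 2, blue for control and red for baicalein, and black bars are group means. SLC7A11, GCLC, GCLM and CHAC1 lie far above their controls, GSS and CTH slightly below, and GSR slightly above.

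Levels are given as TMM-scaled CPM, which compare libraries for 1 gene, and fold changes as baicalein over control. SLC7A11 (ENSG00000151012, chromosome 4, positions 138164097 to 138242349 of GRCh38, minus strand) stood at 12.7 and 10.8 CPM in control 1 and 2, and at 226 and 232 CPM in baicalein 1 and 2. Both treated libraries were far above both controls, an order that 43.4% of all tested genes share, and the controls differed from each other more than the treated libraries did in relative terms. Its log2 fold change was 4.29 with a standard error (SE) of 0.06 (adjusted p = 7.9e-24). Of all tested genes 0.789% had a higher log2 fold change. SLC7A11-AS1, an antisense transcript, shares 865 exon bases with SLC7A11, or 8.97% of its exon length. This antisense row had 2 and 7 counts in the controls and 60 and 31 after baicalein, against 598, 508, 12365 and 8640 for SLC7A11. No source used here says if counting was stranded, so reads from the shared bases cannot be told apart.

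GCLC, the catalytic subunit gene (ENSG00000001084, chromosome 6, positions 53497341 to 53616970, minus strand), stood at 47.7 and 46.0 CPM in the controls and at 148 and 151 CPM after baicalein. Its log2 fold change was 1.67 (SE 0.04, adjusted p = 2.91e-19), a 3.19-fold rise. GCLM, the modifier subunit gene (ENSG00000023909, chromosome 1, positions 93885205 to 93909456, minus strand), stood at 14.2 and 13.8 CPM in the controls and at 91.1 and 95.8 CPM after baicalein. Its log2 fold change was 2.74 (SE 0.06, adjusted p = 3.69e-21), a 6.66-fold rise. For both genes the treated libraries lay above both controls, as in 43.4% of all tested genes. Of all tested genes 5.43% had a higher log2 fold change than GCLC and 2.01% a higher one than GCLM.

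CHAC1, the glutathione-degrading enzyme gene (ENSG00000128965, chromosome 15, positions 40952962 to 40956519, plus strand), had 4.99 and 5.91 CPM in the controls and 32.8 and 29.2 CPM after baicalein. Both treated libraries were well above both controls, an order that 43.4% of all tested genes share. CHAC1 was 5.70-fold higher on average (log2 2.51, SE 0.09, adjusted p = 5.08e-17). This enzyme gene of glutathione breakdown thus rose in the same samples as the synthesis genes GCLC and GCLM.

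The promoters of members that rose together are shown because NRF2 and ATF4 are known to bind short motifs in such regions. RefSeq windows on GRCh38.p14, from 250 bases before to 50 bases after the gene start, were at hand for 4 members (GCLC, GCLM, CHAC1 and CTH). These RefSeq starts differ from the ends of the GENCODE spans printed above, and the windows of GCLC and CHAC1 lie inside those spans, so which start the cells used is not known from them. Not shown are SLC7A11, GSS and GSR, which had no entry. Below are the 250 bases before the start of 3 genes that rose, 5′ to 3′ on the strand of the gene, with capitals for motif matches that lie wholly before the start. The windows are chr1:93909431-93909680 for GCLM, chr15:40953221-40953470 for CHAC1 and chr6:53545102-53545351 for GCLC.
GCLM: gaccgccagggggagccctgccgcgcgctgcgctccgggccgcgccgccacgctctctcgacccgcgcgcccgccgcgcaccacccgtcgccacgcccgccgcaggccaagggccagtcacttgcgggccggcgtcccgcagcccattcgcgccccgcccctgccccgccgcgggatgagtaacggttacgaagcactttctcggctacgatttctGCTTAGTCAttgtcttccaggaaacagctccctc
CHAC1: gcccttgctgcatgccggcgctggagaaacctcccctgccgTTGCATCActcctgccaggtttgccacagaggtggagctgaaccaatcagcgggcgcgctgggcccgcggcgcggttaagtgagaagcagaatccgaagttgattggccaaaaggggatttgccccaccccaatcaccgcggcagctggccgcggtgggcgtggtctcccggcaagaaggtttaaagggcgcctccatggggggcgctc
GCLC: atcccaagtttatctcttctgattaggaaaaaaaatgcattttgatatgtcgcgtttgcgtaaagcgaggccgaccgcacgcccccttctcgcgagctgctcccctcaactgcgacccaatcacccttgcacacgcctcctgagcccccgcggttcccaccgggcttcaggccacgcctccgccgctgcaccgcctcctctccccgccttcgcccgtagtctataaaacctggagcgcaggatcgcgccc

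Matches were searched on both strands for the antioxidant response element core TGANNNNGC, its narrower form TGACNNNGC, which is a subset of the first, and the element of C/EBP and ATF factors TGATGNAA. GCLM held the narrower antioxidant form as TGACTAAGC on the strand opposite the gene, at bases -34 to -26 counted back from the start. Such a match occurred in 13.3% of all 35116 promoter windows. GCLM held another match to the broader core across the start itself, at bases -8 to 1 and so left in lower case, and CTH one at -47 to -39, beside 41.8% of all windows. CHAC1 held the C/EBP and ATF element as TGATGCAA on the strand opposite the gene at bases -209 to -202, a motif found in 3.62% of all windows. GCLC had no match to any of these letters in its window. Sequence of a member outside its window was not searched, so the lack of a match there does not show that the gene lacks the motif. These are matches of letters, and no binding was measured.

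GSS, the glutathione synthetase gene (ENSG00000100983, chromosome 20, positions 34928433 to 34956027, minus strand), had 105 and 110.5 CPM in the controls and 79.0 and 76.8 CPM after baicalein. The treated libraries lay below both controls, as in 43.5% of all tested genes. GSS fell by 0.47 on the log2 scale (SE 0.04, adjusted p = 2.42e-09). Of all tested genes 29.6% fell further. In the test against a 1.5-fold change GSS did not pass. GSR, the glutathione reductase gene (ENSG00000104687, chromosome 8, positions 30678061 to 30727999, minus strand), had 68.6 and 71.3 CPM in the controls and 78.5 and 78.9 CPM after baicalein. Both treated libraries lay above both controls, as in 43.4% of all tested genes. The log2 fold change of GSR was 0.17 (SE 0.05, adjusted p = 0.00213). With library totals alone in place of TMM factors, which moved the median of all genes by -0.10, GSR had 0.07 (adjusted p = 0.197). Its call thus depends on the scaling. Over all alternatives the log2 fold change of GSR was 0.07 to 0.20, and against a 1.5-fold change GSR did not pass either.

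CTH, the cystathionine gamma-lyase gene (ENSG00000116761, chromosome 1, positions 70411218 to 70439851, plus strand), had 127 and 122 counts in the controls and 118 and 79 counts after baicalein. On the CPM scale these were 2.69 and 2.59 in the controls and 2.16 and 2.12 after baicalein. The 2 treated values lay below both controls, which held for 43.5% of all tested genes, but the difference did not pass the test (log2 fold change -0.30, 95% interval -0.62 to 0.02, adjusted p = 0.0823). With library totals alone it passed as lower (-0.41, adjusted p = 0.0227), whereas in DESeq2 it had -0.30 (adjusted p = 0.356). A rise of CTH like that of the ligase genes lies outside this interval.

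**Figure D2:**
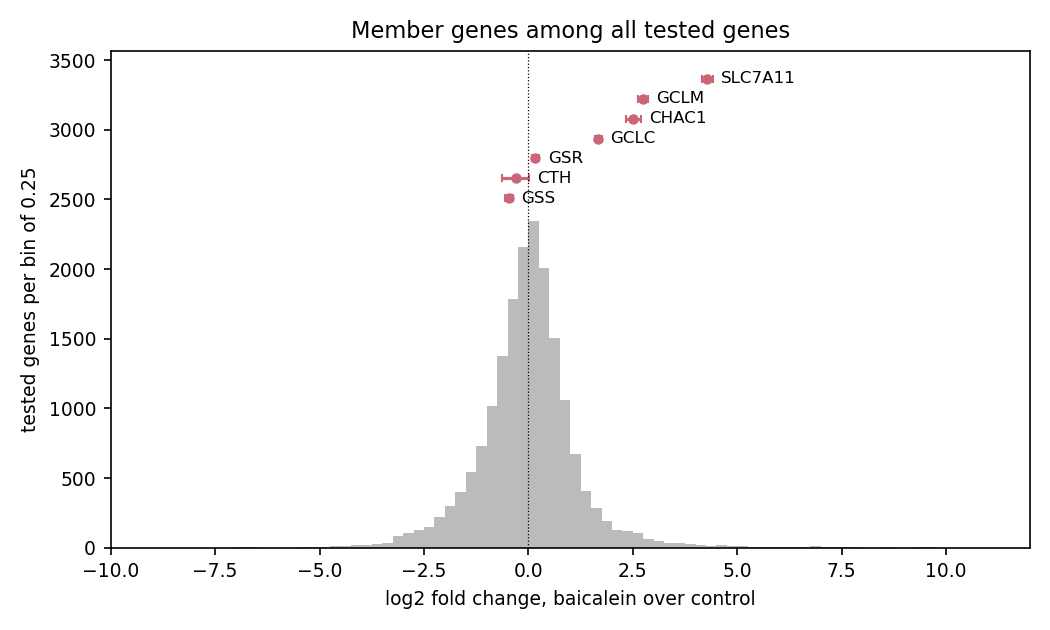
Log2 fold changes of the 7 members (red points with 95% intervals, stacked by height for legibility) above the histogram of log2 fold changes of all 18369 tested genes (grey, number of genes per bin). SLC7A11, GCLM, CHAC1 and GCLC lie in the right tail, whereas GSR, CTH and GSS lie within the bulk.

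To compare genes with each other, counts were divided by gene length and scaled to the same total in each library (TPM, from the union of annotated exons). In the controls GSR (66.1 ± 0.881 TPM, mean ± SD, n = 2 in each group) and GSS (62.0 ± 1.34) were the most abundant members, followed by GCLC (19.2 ± 0.737). CHAC1 (9.40 ± 0.988 TPM) and GCLM (9.18 ± 0.322) did not differ beyond their spread. Nor did the means of SLC7A11 (4.32 ± 0.542) and CTH (3.88 ± 0.151), though SLC7A11 was the higher in both controls. With the longest transcript as the length, SLC7A11 was the lower in both controls. After baicalein SLC7A11 led with 80.0 ± 2.08 TPM, ahead of GSR (70.5 ± 0.813). GCLC (58.3 ± 1.39 TPM) and GCLM (58.1 ± 2.52) did not differ beyond their spread. CHAC1 (50.7 ± 3.78 TPM), GSS (42.5 ± 0.520) and CTH (2.98 ± 0.0126) followed. SLC7A11, GCLC, GCLM and CHAC1, all below GSS in controls, were thus above it after baicalein. With the longest transcript as the length, GSS led in controls (97.3 ± 2.16 TPM) and GCLC after baicalein (102 ± 2.29), where it alone of these 4 genes stood above GSS (67.2 ± 0.921). SLC7A11 was then at 3.32 ± 0.415 in controls and 61.9 ± 1.52 after baicalein. The order between genes therefore depends on the length used, whereas a change within a gene does not.

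The modifier to catalytic subunit ratio of glutamate-cysteine ligase mRNA, per kilobase, was 0.476 and 0.478 in the controls and 0.983 and 1.01 after baicalein. Both treated libraries had the higher ratio, by 2.09-fold, with GCLM up more than GCLC. With the longest transcript as length the same ratio was 0.234 and 0.235 in the controls and 0.484 and 0.497 after baicalein, so its level, unlike its change, depends on the length used and does not give the proportion of the subunits. For the antiporter, the ratio of SLC7A11 to SLC3A2 was 0.0374 and 0.0292 in the controls and 0.105 and 0.105 after baicalein, 3.18-fold higher, and with the longest transcript 0.0161, 0.0125, 0.0450 and 0.0452. The chaperone subunit gene SLC3A2, which also serves other amino acid transporters, itself rose from 181 and 199 to 1158 and 1182 CPM.

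CHAC1 and its paralog CHAC2, which degrades glutathione at a slower, constitutive rate, moved in opposite directions. CHAC2 fell from 4.89 and 4.85 to 1.90 and 2.07 CPM (a log2 value of -1.30, SE 0.14, adjusted p = 1.08e-08). The ratio of CHAC1 to CHAC2 went from 0.656 and 0.783 to 11.1 and 9.07, a 14.0-fold difference. In transsulfuration the ratio of CTH to CBS was 0.124 and 0.109 in the controls and 0.0405 and 0.0383 after baicalein, 2.94-fold lower, and with the longest transcript 0.0571, 0.0503, 0.0187 and 0.0177. CBS rose from 61.1 and 67.1 to 150 and 156 CPM. A near-identical copy of CBS on chromosome 21 (ENSG00000274276, positions 6444869 to 6468040) had a row of its own, with 5.25, 4.66, 12.4 and 9.23 CPM, so reads of CBS may be split between both rows. In each of the 4 ratios the groups did not overlap, but how many other gene pairs separate like this was not counted. Among single tested genes, 43.4% lay above both controls in both treated libraries and 43.5% below. An exact two-sided permutation test of 2 against 2 libraries cannot go below p = 0.33, which each of the 4 ratios gave.

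**Figure D3:**
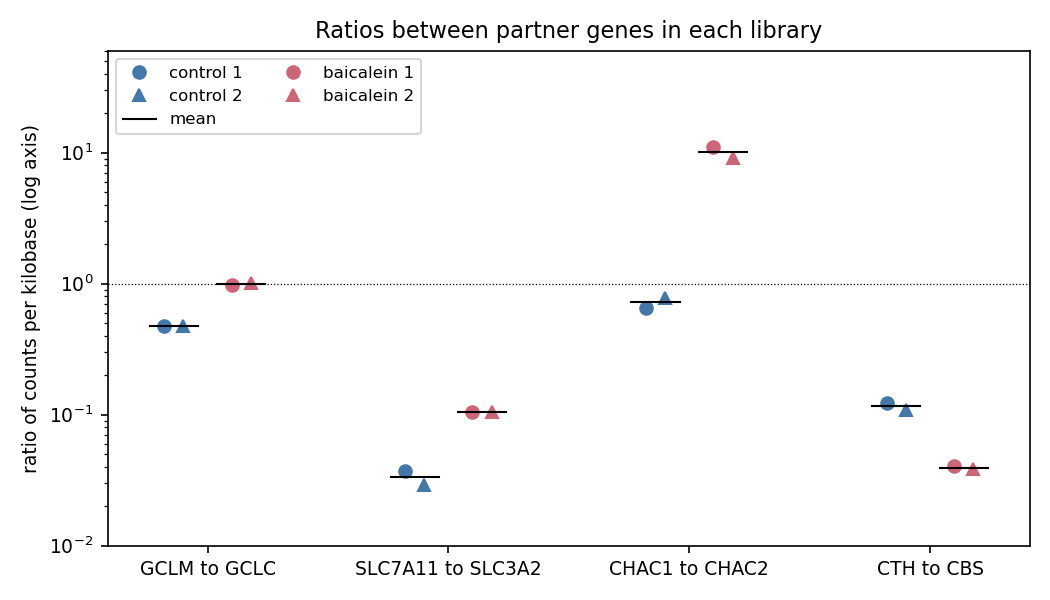
Ratios of counts per kilobase between partner genes in each library, on a log axis, with circles for replicate 1, triangles for replicate 2 and bars for group means. All levels use the union of exons as length. The GCLM to GCLC and SLC7A11 to SLC3A2 ratios are higher in both treated libraries, CHAC1 to CHAC2 goes from below 1 to about 10, and CTH to CBS is lower in both treated libraries.

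The other genes of cystine and glutathione metabolism were read from the same test, by lists chosen with earlier results of these data known. Of 13 tested genes of cystine, cysteine and glutathione transport 10 were higher and 3 lower (median log2 fold change 0.81). Over all tested genes the shares were 37.4% higher and 37.6% lower. ABCC4, with 4 and 1 counts in the controls and 32 and 26 after baicalein, passed the filter through the treated libraries alone. With a filter of at least 50 counts in 2 libraries, 8 genes of the list were higher and 3 lower. By that filter 6073 of 14764 genes were higher and 6051 lower. Besides SLC3A2 (2.62), the neutral amino acid exchanger gene SLC1A4 had 1.53, and the efflux pump genes ABCC3 and ABCC5 had 1.12 and 0.96. The cysteine and glutamate transporter gene SLC1A1 was among the lower ones, from 12.1 and 9.89 to 3.93 and 4.27 CPM. SLC25A39 and SLC25A40, which code for mitochondrial glutathione importers, were the other lower ones (-0.21 and -0.66).

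Of 9 tested genes of the methionine cycle and transsulfuration 4 were higher and 3 lower (median 0.04), beside 37.4% and 37.6% of all genes. CBS (1.25), MTRR (0.56), which codes for methionine synthase reductase, and AHCYL2 (0.65) were higher. GNMT, which codes for a glycine methyltransferase that uses the methyl donor S-adenosylmethionine, fell from 4.11 and 4.76 to 1.37 and 1.29 CPM. MAT2A, the gene of the enzyme that makes this donor, had -0.04 and did not pass. Of 7 genes of cysteine and sulfide breakdown 3 were higher and 4 lower (median -0.27), beside the same shares of all genes. GOT1, a transaminase gene, rose by a log2 fold change of 1.61 and MPST, a sulfurtransferase gene, by 0.56, whereas the sulfite oxidase gene SUOX had -1.55 and the sulfide-oxidising enzyme gene SQOR -0.54.

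Of 9 tested genes of glutathione breakdown other than CHAC1, 2 were higher and 7 lower (median -0.99), so CHAC1 moved against most of its list. Over all tested genes 37.4% were higher and 37.6% lower. GGT6 fell from 93.0 and 103 to 28.3 and 27.1 CPM and GGT1, the gamma-glutamyl transferase gene, from 16.8 and 19.0 to 6.25 and 6.44 CPM. GGCT, which codes for gamma-glutamylcyclotransferase, which acts on the products of the transferases, fell from 217 and 205 to 107 and 105 CPM. OPLAH, the 5-oxoprolinase gene, rose from 29.7 and 32.7 to 55.3 and 59.0 CPM. The other higher gene, GGT7, had 0.13 (adjusted p = 0.0421), a call lost without control 1, without baicalein 1 or without baicalein 2, each of which left 1 higher gene. GGT1 belongs to a family with near-identical copies, so its reads may be split.

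Of 7 tested glutathione peroxidase and glutaredoxin genes 1 was higher and 4 lower (median -0.42), and against a 1.5-fold change 0 were higher and 2 lower. Of all tested genes 37.6% were lower and 19.5% lower against a 1.5-fold change. GPX4, the lipid hydroperoxide reductase gene, fell from 162 and 164.5 to 125 and 118 CPM (log2 fold change -0.42), and GPX8, GPX3 and GLRX had -0.74, -0.53 and -1.85. Of 14 tested glutathione transferase genes 1 was higher and 10 lower (median -0.86), and 8 were lower against a 1.5-fold change. GSTM3 fell from 199 and 194 to 77.0 and 75.7 CPM and the mitochondrial and peroxisomal transferase gene GSTK1 by a log2 fold change of -1.21. GSTM4 had -1.60, and MGST1, which codes for a microsomal transferase, was the 1 that rose, from 142 and 133 to 269 and 277 CPM. GSTM and GSTT2 genes have close copies, and reads may be split between them. The lists named 3 peroxidase and 6 transferase genes that are not analysed here, among them GPX1 and GSTP1.

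**Figure D4:**
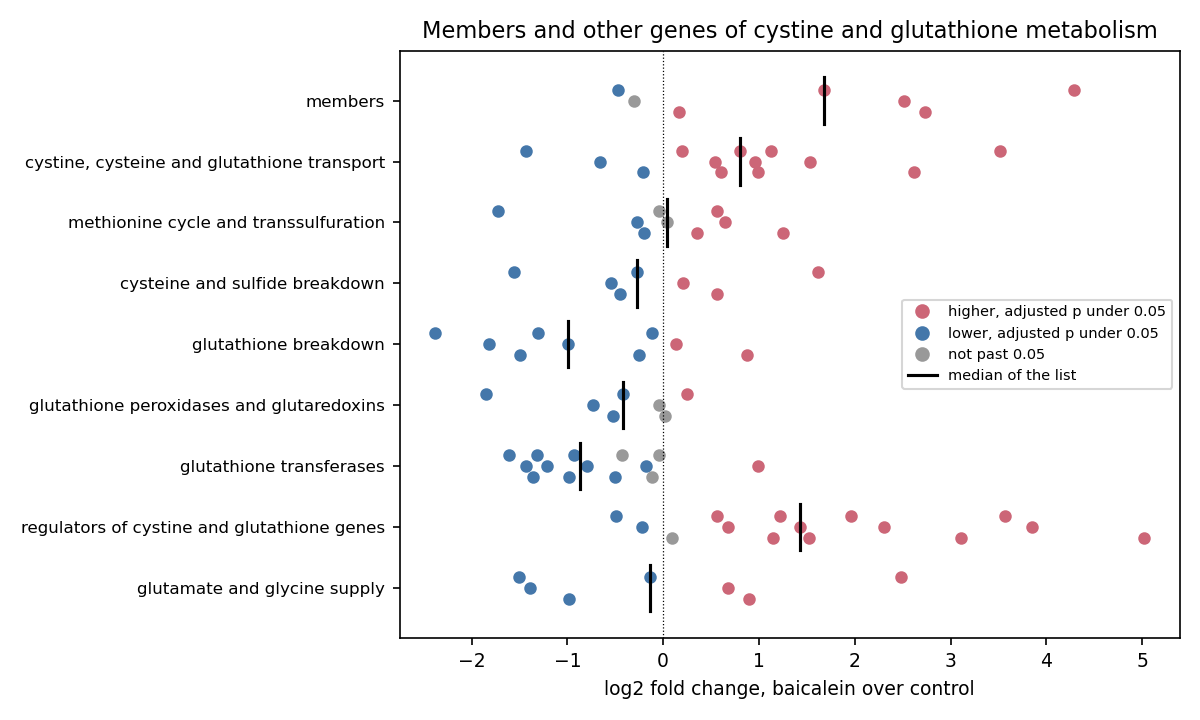
Log2 fold changes of each tested gene in 9 lists, 1 point per gene, red for higher and blue for lower at an adjusted p under 0.05 and grey for not past it, with the median of each list as a black bar. The member, transport and regulator lists have medians above 0.8, and the glutathione breakdown and glutathione transferase lists medians below -0.8.

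Among 15 regulators of cystine and glutathione genes 12 were higher and 2 lower (median 1.43), beside 37.4% and 37.6% of all tested genes. NFE2L2 (NRF2) rose from 55.1 and 50.7 to 140 and 146 CPM, and its partner gene MAFG had a log2 fold change of 2.31. KEAP1, which targets NRF2 for degradation, had 0.56, and BACH1, a repressor at the same elements, had 1.53. ATF4 rose from 224 and 234 to 543 and 522 CPM, and ATF3 and TRIB3, known members of that response, had 3.85 and 3.11. NFE2L1, a relative of NRF2, had 1.96. The mRNAs of NRF2 and of both of these opponents were thus higher in the same samples. KEAP1 did not pass against a 1.5-fold change, whereas NFE2L2 and BACH1 did. Of 7 genes of glutamate and glycine supply 3 were higher and 4 lower (median -0.13), beside the same shares of all genes. The glycine transporter gene SLC6A9 rose from 11.5 and 12.6 to 68.4 and 66.0 CPM. The mitochondrial serine hydroxymethyltransferase gene SHMT2 rose (0.90), whereas the cytosolic form SHMT1 (-1.50) and the glutamine synthetase gene GLUL (-0.99) fell.

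The genes whose pattern over the 4 libraries was most like that of SLC7A11, by root mean square difference of log2 CPM from the control mean among 12777 genes, were PLEKHH2 (0.0717), SERPINB8 (0.0982) and C2CD4A (0.0991). PLEKHH2 went from 3.36 and 3.06 to 66.5 and 68.6 CPM. The genes most like CHAC1 were SLC6A9 (0.0604), CLCN4 (0.0758) and TRIM16L (0.0774). With 4 libraries in 2 groups, any gene with a change of like size counts as alike.

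Total counts were 38597207 to 56732569 per library, so 1 CPM stood for 37.3 to 54.7 counts. Libraries of a group correlated at r = 0.9945 and 0.9946 over log2 CPM of genes, and libraries of different groups at 0.9318 to 0.9357. All 8 luminal breast markers were present, at a summed 12331 to 13608 CPM in controls and 6236 to 6331 CPM after baicalein. Most of this sum came from the keratin genes KRT8, KRT18 and KRT19. The log2 fold changes of PGR, ESR1, GATA3 and KRT19 were -3.05, -2.20, -1.48 and -0.91. At an adjusted p under 0.05, 7 of the 8 were lower, beside 37.6% of all tested genes. Against a 1.5-fold change 5 were lower, beside 19.5%. Of 9 basal, stromal, immune and endothelial markers 4 had a row under their symbol. Rows whose identifier lacked a symbol could not be found this way. The 4 markers summed to 90.6 to 101 CPM in controls and 140.3 to 150 CPM after baicalein. This sum was almost all COL1A1, with VIM, COL1A2 and PTPRC below 1 CPM. The part of these marker changes in the results on the members was not tested.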

How the data were processed

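The authors deposited 1 table of whole-number counts per Ensembl gene, unscaled, for 4 libraries. Per the submitters' processing notes, the tools were STAR 2.7.8a, RSEM 1.3.3, cutadapt 2.3, FastQC 0.11.8 and DESeq2 1.34 on build GRCh38, with no roles named. Strand use, annotation release and whether counts are rounded RSEM estimates are not stated there. The smallest row total was 10. Columns were matched by sample descriptions and groups by titles. Symbols came from a names table (20470 identifiers matched, 17419 of them with a symbol), and coordinates and lengths from GENCODE release 29 (19849 matched).

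The test was edgeR 4.0.16 under R 4.3.3 (TMM factors, filterByExpr with a minimum count of 10, robust quasi-likelihood F test, no covariates) over 18369 genes, with Benjamini-Hochberg adjustment over all of them and a threshold of 0.05. A standard error is the log2 fold change divided by the root of F. The script was tested on simulated data with known changes. Alternatives were DESeq2 1.42.0, voom of limma 3.58.1, other scalings, filters, thresholds and a 1.5-fold null, a block on replicate number, and omission of single libraries. Named were all members, and in each list the 4 genes with the smallest adjusted p, fixed partner genes, and the 3 genes most like SLC7A11 and CHAC1 in pattern. SLC1A1, SLC25A39, SLC25A40, MAT2A, GGT7, SLC7A11-AS1, the CBS copy and the 6 untested genes given at the end were added after their values were seen. So were ABCC4, KRT8 and KRT18. The members and lists were chosen with earlier results of these data known.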

Additional observations from a re-analysis of the deposited data

How the results depend on the processing

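SLC7A11, GCLC, GCLM and CHAC1 kept their direction and their call in all 14 alternatives, with log2 fold changes of 4.18 to 4.40, 1.57 to 1.70, 2.63 to 2.78 and 2.39 to 2.65. GSS had -0.57 to -0.42 and lost its call only against a 1.5-fold change. Leaving out a library kept 5 members higher and 1 lower each time, with the lone library of a group assumed to vary like the other group. With library totals alone, 2 members were lower. Against a 1.5-fold change 3090 genes were higher and 3581 lower, in place of 6866 and 6902, and 0 members were lower. By that test, higher and lower genes numbered 6 and 1 of 13 in transport and 1 and 1 of 9 in the methionine cycle. In cysteine and sulfide breakdown they numbered 1 and 1 of 7, and among peroxidases and glutaredoxins 0 and 2 of 7. Among 15 regulators 11 were higher and 0 lower. The shares of all tested genes were 16.8% higher and 19.5% lower. The methionine cycle list had 6 higher genes in place of 4 without a filter and in DESeq2, which test genes of low counts too. Glutathione breakdown had 1 higher gene in place of 2 with upper-quartile factors, with library totals, without a filter, in DESeq2, at an adjusted p of 0.01 and against a 1.5-fold change, and 1 to 2 when a library was left out. The replicate numbers are not said to pair the libraries, and same-numbered libraries deviated together with r = 0.0136 over genes. With the replicate number as a block, 6894 genes were higher and 6909 lower, 5 members higher and 1 lower, and no call of a member changed. The 4 ratios kept their direction without any 1 library and with the longest transcript as length. Depth limits CTH most, with 79 to 127 counts per library.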

Other observations

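The 6 genes of the related lists with a row but too few counts to be tested were BHMT, BHMT2, SLC3A1, MAT1A, SLC7A9 and ANPEP. BHMT and BHMT2 code for enzymes that remake methionine from homocysteine. BHMT had 0 counts in both controls and 9 and 5 in baicalein 1 and 2, and BHMT2 had 0 in both controls and 12 and 6. Exons of BHMT share 239 bases with DMGDH on the opposite strand. SLC3A1, the heavy chain of the cystine transporter of kidney and gut, had 0 and 1 counts in the controls and 9 and 5 after baicalein. The exons of SLC3A1 overlap those of PREPL and AC013717.1. In the same order of libraries MAT1A, a gene for an enzyme that makes S-adenosylmethionine, had 5, 5, 6 and 7 counts, SLC7A9, which codes for the partner of SLC3A1, had 6, 3, 14 and 4, and the aminopeptidase gene ANPEP had 6, 1, 5 and 2. The limit that a count of 0 allows, 3 counts, equals 0.0548 to 0.0805 CPM for counting error alone, so these counts lie near what the depth can show.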
